A study of Mus musculus with 4 samples.

Results

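Claudins and keratins are the proteins that give epithelial sheets their seal and their internal scaffold. The probe sets whose only annotated gene symbol is Cldn or Krt followed by digits were taken as members, which gave 72 of the 35556 probe sets on the array, and 71 of the 19938 genes that the 21789 probe sets with 1 symbol measure. They comprise 24 claudin probe sets for 23 genes, with Cldn10 measured by a pair of them, and 48 keratin probe sets for 48 genes. Expression was measured on 4 Affymetrix arrays of mouse cells, with 1 array per condition. The conditions were undifferentiated ES cells at day 0, and embryoid bodies (EBs) at day 7 that received no ligand, RA or bexarotene. ES cells had no ligand, and EBs were grown for 2 days in hanging drops and for 5 more days afterwards. According to the labels RA was given at 5 µM and bexarotene at 50 nM, while the article gives a lower RA dose, so the ligands were not compared at a matched dose. All cells were of the D3 line by the article's account, EBs hold many cell types at once, and no replicate culture was measured.

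Values are log2 signal per probe set, and a difference is that between 2 arrays on the log2 scale. The threshold was 1.5-fold in either direction, a log2 difference of 0.585. With 1 array in each group no test could be made, so "higher" and "lower" describe pairs of arrays. Among probe sets with signal like that of a member, differences of bexarotene from RA had a robust SD between 0.0707 and 0.139. Those are the 2 arrays that resembled each other most, so this is no measure of how cultures vary. Probes differ in how strongly they hybridise, so signals of different genes were not ranked as amounts of RNA. The labels were checked on 21 pluripotency genes. Relative to ES cells, 18 had at least 1.5-fold less signal in untreated EBs and none had more, at a median log2 difference of -2.75. Over all probe sets with 1 symbol, 8.5% had less and 11.2% more. This check separates ES cells from EBs, and it cannot tell the EB labels from each other.

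Claudins are membrane proteins with 4 transmembrane spans that pair across neighbouring cells in tight junctions, and the mix of claudins sets which ions and solutes pass between the cells. Keratins are the intermediate filament proteins of epithelia. A type I keratin and a type II keratin must pair to build a filament, and the filaments are anchored at desmosomes. Krt8 and Krt18 form the earliest keratin pair of the embryo, in trophectoderm and then in endoderm and other simple epithelia, whereas Krt5 with Krt14 marks the basal layer of stratified epithelia, and many other keratins belong to epidermis, hair or the sheath of the hair root.

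Most members gave similar signal on all 4 arrays. For 18 of 24 claudin probe sets and 43 of 48 keratin probe sets the distance from the lowest to the highest array was under 1.5-fold, against 16140 of all 21789 probe sets with 1 symbol. The median of that distance was 0.35 for claudins, 0.24 for keratins and 0.32 over all probe sets with 1 symbol. The members that varied by more were Cldn1, Cldn4, Cldn6, Cldn8, 1 of the Cldn10 probe sets, Cldn11, Krt5, Krt8, Krt17, Krt18 and Krt19. Signal stood at or above the array median on all 4 arrays for 5 claudin probe sets (Cldn3, Cldn4, Cldn6, Cldn7 and Cldn12) and for 3 keratins (Krt7, Krt8 and Krt18). It stood below the median on all 4 arrays for 18 claudin and 41 keratin probe sets, where small changes are hard to detect.

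**Figure D1:**
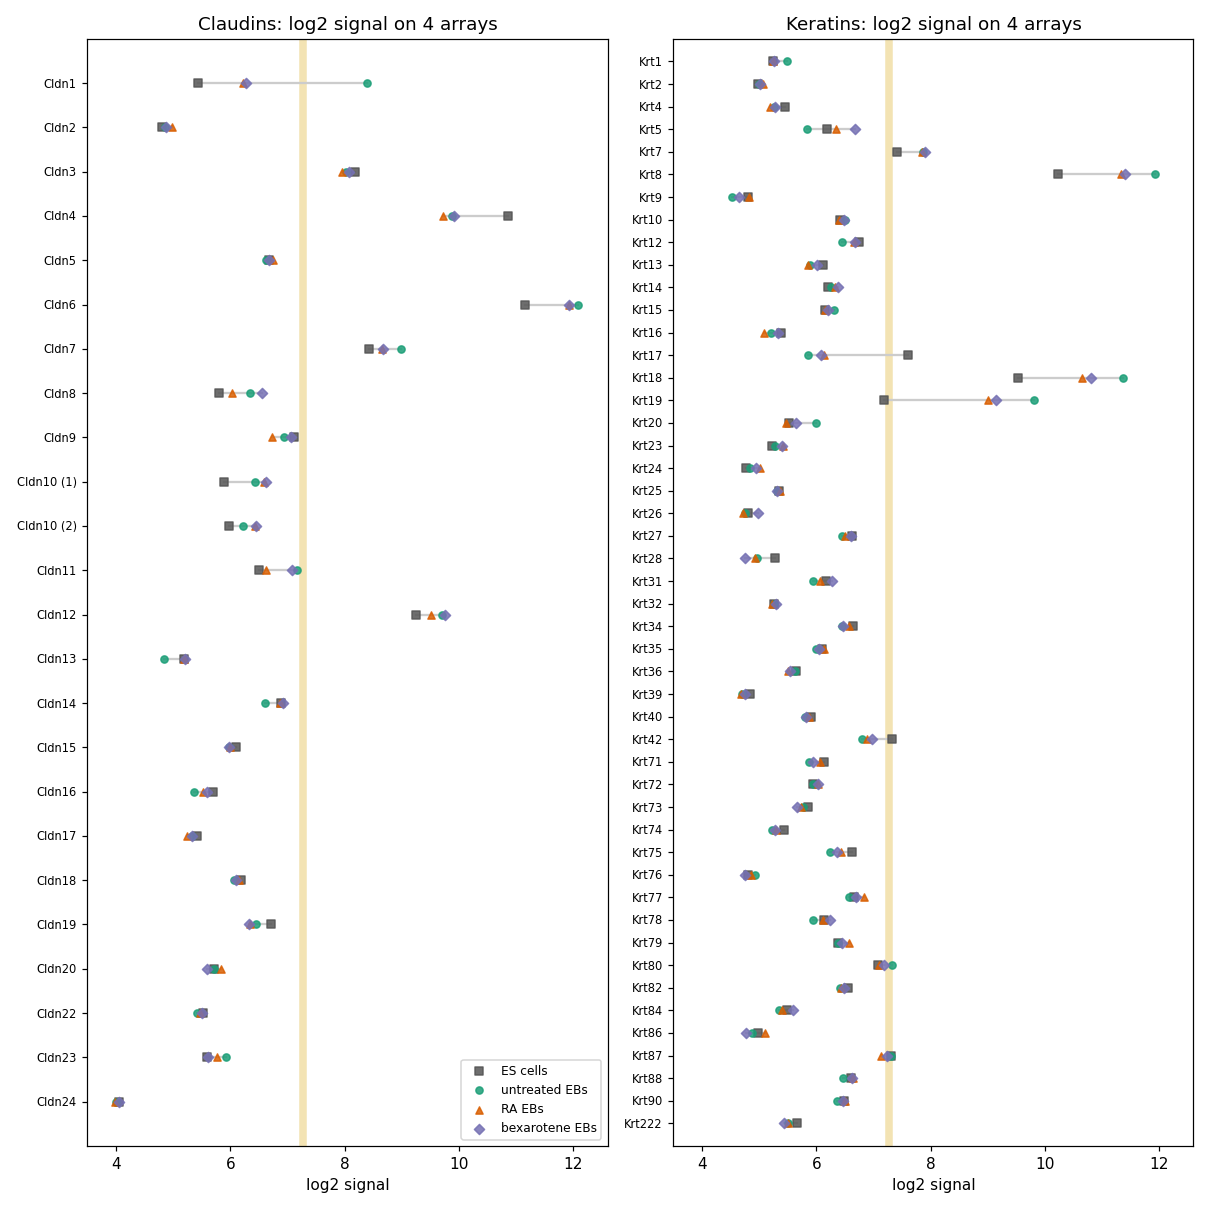
Log2 signal (x axis) of 24 claudin and 48 keratin probe sets (rows) on 4 arrays, 1 symbol per array, with grey bars from the lowest to the highest array and a shaded band over the range of the 4 array medians of probe sets with 1 symbol. Cldn1, Krt8, Krt18 and Krt19 have long bars that end at the untreated EB array on the right, while Krt17 has its highest signal, 7.61, in ES cells.

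In untreated EBs relative to ES cells, a few claudins, 3 keratins of simple epithelia and the stratified epithelial keratin Krt17 differed. Of 24 claudin probe sets 3 were past 1.5-fold higher and 1 lower, and the 48 keratins gave the same counts, 3 higher and 1 lower. Over all probe sets with 1 symbol, 11.2% were past 1.5-fold higher and 8.5% lower, 19.7% in all, so neither family as a whole, at 16.7% of claudins and 8.33% of keratins, exceeded the background. The median log2 difference was -0.06 for claudins, -0.10 for keratins and -0.04 over all probe sets with 1 symbol. The members past the threshold were Cldn1, Cldn6 and Cldn11 and Krt8, Krt18 and Krt19 on the higher side, and Cldn4 and Krt17 on the lower side. Just inside the threshold lay Cldn11 at a log2 difference of 0.67, and just outside it lay Cldn7 at 0.56.

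Cldn1, a sealing claudin that the epidermal barrier requires, differed most. On the log2 scale it had 5.44 in ES cells, 8.40 in untreated EBs, 6.22 after RA and 6.27 after bexarotene. The untreated EB array stood apart from the other 3 and was the only one on which Cldn1 was above the array median. Untreated EBs were 7.79-fold above ES cells, and relative to untreated EBs Cldn1 was 4.51-fold lower with RA and 4.36-fold lower with bexarotene. Signal with either ligand remained above that of ES cells, by 1.73-fold with RA and 1.79-fold with bexarotene, and the ligand arrays differed from each other by a log2 difference of 0.05.

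Cldn6 and Cldn4, claudins of early embryonic and of many mature epithelia, differed in opposite directions between ES cells and EBs. Cldn6 had a log2 signal of 11.15 in ES cells, 12.08 in untreated EBs, 11.93 after RA and 11.92 after bexarotene. All 3 EB arrays lay above ES cells, untreated EBs by 1.90-fold. Cldn4 had 10.86 in ES cells, 9.89 in untreated EBs, 9.72 after RA and 9.92 after bexarotene. All 3 EB arrays lay below ES cells, untreated EBs by 1.97-fold, and neither gene differed by 1.5-fold between untreated EBs and either ligand.

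Other claudins differed little or at low signal. Cldn11, the claudin of oligodendrocyte myelin and of Sertoli cell junctions, had 6.49 in ES cells, 7.17 in untreated EBs, 6.62 after RA and 7.08 after bexarotene, below the median throughout. With RA it was 1.46-fold lower than in untreated EBs, and with bexarotene 1.06-fold lower. Cldn7, a claudin of many epithelia, had 8.42 in ES cells, 8.98 in untreated EBs, 8.65 after RA and 8.67 after bexarotene. Cldn3, a sealing claudin, stayed between 7.96 and 8.18 on the 4 arrays, and Cldn12, a claudin whose tail lacks the usual binding motif for scaffold proteins, between 9.26 and 9.76. Cldn9, best known from the inner ear, stayed between 6.72 and 7.11, below the median.

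Cldn5, the sealing claudin of endothelium and the blood-brain barrier, had a log2 signal of 6.68 in ES cells, 6.62 in untreated EBs, 6.75 after RA and 6.68 after bexarotene, below the median on all 4 arrays. Over the same arrays 6 of 16 endothelial genes were past 1.5-fold higher in untreated EBs than in ES cells and 4 were lower. Over all probe sets with 1 symbol, 11.2% were higher and 8.5% lower. The log2 of the summed signal of the 16 genes came to 11.85 in ES cells, 11.75 in untreated EBs, 11.60 after RA and 11.66 after bexarotene. Eng and Pecam1, the 2 with the highest signal in ES cells, were among the 4 lower genes. Eng had 10.11 in ES cells and 7.62 in untreated EBs, and Pecam1 9.15 and 6.85. They weigh most on the ES cell sum, and sums without them were not computed. With RA 4 of the 16 were lower than in untreated EBs, and with bexarotene 2, and none was higher. Over all probe sets with 1 symbol, 2.36% were lower with RA and 2.27% with bexarotene. The 5 channel-forming or ion-selective claudin genes, Cldn2, Cldn10, Cldn15, Cldn16 and Cldn17, were not past 1.5-fold in untreated EBs against ES cells. The Cldn10 probe sets had log2 differences of 0.54 and 0.24 there, both above 0.

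**Figure D2:**
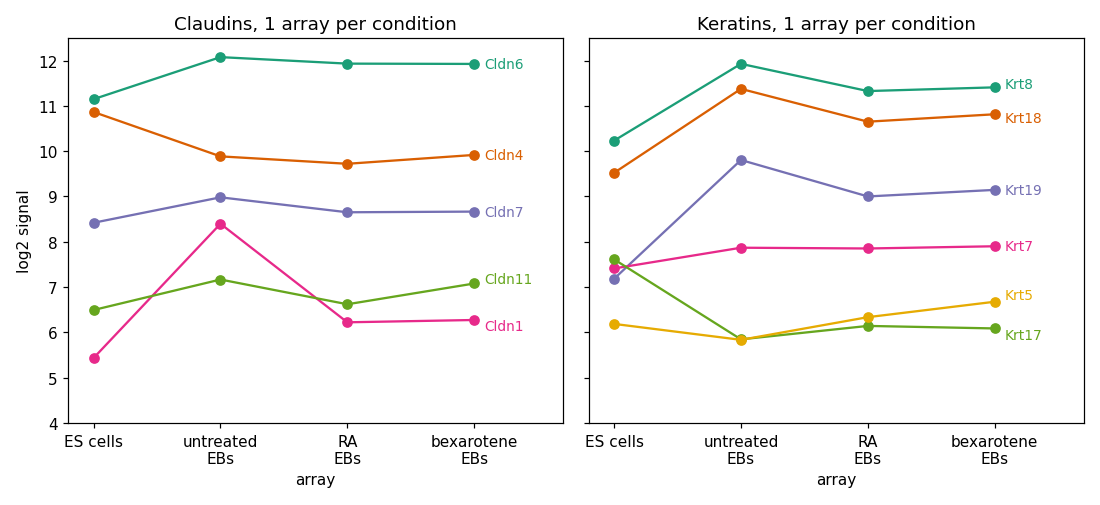
Log2 signal (y axis) of 5 claudins and 6 keratins on the ES cell, untreated EB, RA EB and bexarotene EB arrays (x axis), with 1 point per array and lines only to guide the eye. Cldn1, Krt8, Krt18 and Krt19 are highest on the untreated EB array, Cldn4 and Krt17 on the ES cell array, and Krt5 on the bexarotene EB array.

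Among keratins, the 3 that were past 1.5-fold higher in untreated EBs belonged to simple epithelia, and the 1 that was lower, Krt17, to stratified epithelia. All 6 keratins of simple epithelia, Krt7, Krt8, Krt18, Krt19, Krt20 and Krt23, had a log2 difference above 0 in untreated EBs, with a median of 1.08, and 3 were past 1.5-fold. Of 18 keratins of stratified epithelia none was past 1.5-fold higher and 1 was lower, and of 21 keratins of hair and its root sheath none was past it. The latter had log2 differences between -0.38 and -0.007 as deposited, and 5 of these 21 lay above 0 after loess normalization and 1 after quantile normalization. Krt87, a hair keratin, had 7.32 in ES cells, 7.30 in untreated EBs, 7.13 after RA and 7.24 after bexarotene, close to the array medians throughout.

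Krt8, the type II keratin of simple epithelia, had a log2 signal of 10.23 in ES cells, 11.93 in untreated EBs, 11.33 after RA and 11.41 after bexarotene. Krt18, its type I partner, had 9.52 in ES cells, 11.37 in untreated EBs, 10.65 after RA and 10.81 after bexarotene. For both genes ES cells were lowest, untreated EBs were highest and the ligand arrays lay between. Untreated EBs were 3.24-fold above ES cells for Krt8 and 3.61-fold for Krt18.

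Krt19, a type I keratin of simple and ductal epithelia that has almost no tail domain, had 7.18 in ES cells, 9.81 in untreated EBs, 9.001 after RA and 9.15 after bexarotene. The order of the arrays was that of Krt8 and Krt18, and untreated EBs were 6.15-fold above ES cells. Krt7, the other type II keratin of simple epithelia, had 7.41 in ES cells, 7.87 in untreated EBs, 7.85 after RA and 7.90 after bexarotene, so the 3 EB arrays were alike. Krt20, a keratin of gut epithelium, had 5.53 in ES cells, 5.99 in untreated EBs, 5.48 after RA and 5.65 after bexarotene, all below the median.

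Krt17, a type I keratin of embryonic ectoderm, skin appendages and wounded epidermis, ran the other way. The array values on the log2 scale were 7.61 in ES cells, 5.85 in untreated EBs, 6.14 after RA and 6.09 after bexarotene. The ES cell array alone was above the median, and untreated EBs were 3.40-fold lower. Of 14 surface ectoderm and epidermal genes, 5 were past 1.5-fold higher in untreated EBs and 3 lower, relative to ES cells. Over all probe sets with 1 symbol, 11.2% were higher and 8.5% lower. On the log2 scale the summed signal of the 14 genes came to 11.70 in ES cells, 11.15 in untreated EBs, 11.11 after RA and 11.36 after bexarotene. Without Sfn, an epidermal 14-3-3 protein, the sums were 10.97, 11.01, 10.97 and 11.23, an alternative chosen after seeing the data, so the lower sum in EBs rested on that gene. The part of those cells in the Krt17 difference was not tested.

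Krt8 and Krt18 lie next to each other on mouse chromosome 15, in the cluster of type II keratin genes. Their upstream sequences are shown beside those of Cldn1 and Cldn4 because these are the members with the clearest differences for which a promoter sequence was at hand. Each is the 250 bases before the RefSeq start of the gene in GRCm38.p6, from 5′ to 3′ on the strand of the gene. Capitals mark 2 motifs searched on both strands, the E-box CAGGTG, which Snail and Zeb repressors can bind, and AGGTCA, the hexamer from which binding sites of RAR and RXR are built.
Cldn1, chr16:26371840-26372089, - strand: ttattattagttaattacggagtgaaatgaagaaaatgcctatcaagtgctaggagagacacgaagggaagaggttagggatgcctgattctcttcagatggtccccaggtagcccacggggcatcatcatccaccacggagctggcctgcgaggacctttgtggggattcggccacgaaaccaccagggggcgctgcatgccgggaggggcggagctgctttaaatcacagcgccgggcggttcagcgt
Cldn4, chr5:134946935-134947184, - strand: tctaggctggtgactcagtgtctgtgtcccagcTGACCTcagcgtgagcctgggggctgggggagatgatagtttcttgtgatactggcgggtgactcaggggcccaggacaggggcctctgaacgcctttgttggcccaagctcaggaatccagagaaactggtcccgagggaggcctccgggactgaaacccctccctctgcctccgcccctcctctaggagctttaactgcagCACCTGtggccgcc
Krt8, chr15:102004343-102004592, - strand: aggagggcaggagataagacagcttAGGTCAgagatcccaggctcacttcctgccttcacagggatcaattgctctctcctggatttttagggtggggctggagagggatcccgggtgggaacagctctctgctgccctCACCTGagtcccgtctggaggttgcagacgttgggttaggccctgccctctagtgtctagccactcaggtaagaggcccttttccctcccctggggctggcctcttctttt
Krt18, chr15:102027966-102028215, + strand: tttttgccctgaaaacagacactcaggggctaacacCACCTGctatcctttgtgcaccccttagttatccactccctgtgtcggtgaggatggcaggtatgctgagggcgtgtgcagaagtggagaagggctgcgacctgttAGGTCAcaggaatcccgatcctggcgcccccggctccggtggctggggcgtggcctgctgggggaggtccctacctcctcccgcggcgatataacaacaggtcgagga

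The Krt8, Krt18 and Cldn4 windows each held 1 E-box and 1 AGGTCA hexamer, and the Cldn1 window held neither. The E-box ended 106 bases before the start of Krt8, 209 before that of Krt18 and 9 before that of Cldn4. The hexamer ended 220 bases before the start of Krt8, 103 before that of Krt18 and 212 before that of Cldn4. No match overlapped another in these 4 windows. Of all 32851 windows of this length in the RefSeq table, 17.2% held the E-box, 2.74% held both, and 4607 held the hexamer. Among members, 4 of 27 claudin windows and 14 of 36 keratin windows held the E-box, and 6 of 27 and 7 of 36 held the hexamer. Both motifs stood in 3 of 27 claudin windows (11.1%) and in 3 of 36 keratin windows (8.33%). Some genes have more than 1 window, so the 27 claudin windows cover 19 genes and the 36 keratin windows 35. A match is a description of letters, and no binding was measured.

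Krt8 and Krt18 were the only neighbouring keratins that were both past 1.5-fold in untreated EBs against ES cells. All 22 type II keratins and Krt18 lie on chromosome 15, and the other 25 type I keratins on chromosome 11. Krt8 and Krt18 had log2 differences of 1.69 and 1.85 in untreated EBs against ES cells, while Krt78, on the other side of Krt8, had -0.21. Krt19 had 2.62, and its neighbours Krt15 and Krt9 had 0.15 and -0.29. Krt17 had -1.77, and its neighbours Krt16 and Krt42 had -0.18 and -0.52.

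Neighbouring claudins differed from each other too. Cldn6 and Cldn9 on chromosome 17 had log2 differences of 0.93 and -0.18, Cldn4 and Cldn3 on chromosome 5 had -0.98 and -0.17, and Cldn1 and Cldn16 on chromosome 16 had 2.96 and -0.33. Gene order was taken from the GRCm38.p6 annotation and covers protein-coding genes and members.

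**Figure D3:**
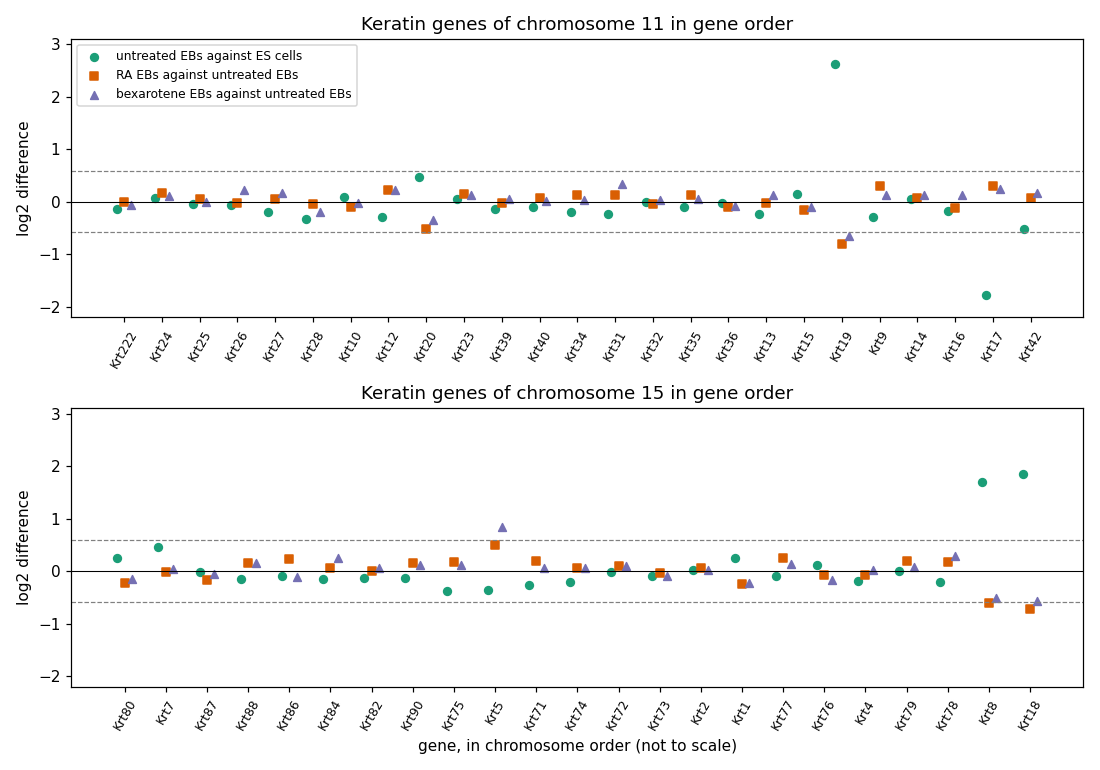
Log2 difference (y axis) of keratin genes in the order of their chromosome (x axis, not to scale), for untreated EBs against ES cells (circles), RA against untreated EBs (squares) and bexarotene against untreated EBs (triangles), with dashed lines at 1.5-fold. On chromosome 15 only Krt8 and Krt18 lie past the upper line for untreated EBs against ES cells, and on chromosome 11 only Krt19 does.

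With RA, 4 members were past 1.5-fold lower than in untreated EBs and none was higher. They were Cldn1, Krt8, Krt18 and Krt19, 1 of 24 claudin and 3 of 48 keratin probe sets, where 2.36% of all probe sets with 1 symbol were lower and 2.13% higher, 4.49% in all. The median log2 difference was -0.04 for claudins and 0.06 for keratins, against -0.001 over all probe sets with 1 symbol. Krt19 was 1.75-fold lower, Krt18 1.65-fold lower and Krt8 1.52-fold lower. Krt8 lay just inside the threshold at a log2 difference of -0.60, and after loess normalization it lay just outside, at -0.58. Of the 6 keratins of simple epithelia 5 had a log2 difference below 0, and 4 after loess or quantile normalization.

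With bexarotene, 2 members were past 1.5-fold lower than in untreated EBs and 1 was higher. Cldn1 and Krt19 were lower and Krt5 was higher, where 2.27% of all probe sets with 1 symbol were lower and 1.55% higher. The share of members past the threshold, 4.17%, was close to the 3.82% over all probe sets with 1 symbol. The median log2 difference was 0.04 for claudins and 0.05 for keratins, against -0.009 over all probe sets with 1 symbol. Krt19 was 1.58-fold lower. Krt18 and Krt8 had log2 differences of -0.56 and -0.52, short of the threshold that they passed with RA. The RA and bexarotene comparisons share the untreated EB array, so a value that is off on that array moves both.

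Krt5, the type II keratin of basal epithelial cells, had a log2 signal of 6.19 in ES cells, 5.84 in untreated EBs, 6.34 after RA and 6.68 after bexarotene, below the median on all 4 arrays. The untreated EB array was lowest and the bexarotene array highest, 1.79-fold apart, and RA was 1.41-fold above untreated EBs. Its type I partner Krt14 stayed between 6.20 and 6.38. Trp63, the transcription factor of basal epithelium, stood in the list of surface ectoderm and was picked out after its values were seen. It had 6.46, 6.67, 6.91 and 7.06 in the same order of arrays, below the median on all 4. With bexarotene it was 1.31-fold above untreated EBs, short of the threshold. Of 14 surface ectoderm and epidermal genes, 2 were past 1.5-fold higher with bexarotene, the AP-2 genes Tfap2a at 1.53-fold and Tfap2b at 2.59-fold.

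Between the bexarotene and RA arrays no member was past 1.5-fold, where 0.473% of all probe sets with 1 symbol were, 0.193% higher and 0.28% lower. Nearest to the threshold on the higher side was Cldn8, a claudin of the distal nephron, with a log2 difference of 0.53, followed by Cldn11 with 0.46, and on the lower side Krt86, a hair keratin, with -0.34. Cldn8 had 5.80 in ES cells, 6.35 in untreated EBs, 6.02 after RA and 6.55 after bexarotene. Cldn1, Krt8, Krt18 and Krt19 had log2 differences of 0.05, 0.08, 0.16 and 0.14. Without replicates no interval of these differences can be given, and the doses were not matched.

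Relative to ES cells, the EBs treated with either ligand still had Krt8, Krt18 and Krt19 past 1.5-fold higher and Krt17 past it lower. Krt19 was 3.52-fold above ES cells with RA and 3.89-fold with bexarotene, Krt18 2.19-fold and 2.45-fold, and Krt8 2.13-fold and 2.26-fold. Krt17 was 2.77-fold lower with RA and 2.88-fold lower with bexarotene. For claudins, 3 probe sets were higher and 1 lower with RA, and 5 higher and 1 lower with bexarotene. Over all probe sets with 1 symbol, 10.6% were higher and 9.21% lower than in ES cells with RA, and 10.3% and 9.61% with bexarotene, or 19.9% in all with either ligand.

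The protein partners of claudins and keratins were taken from lists, with a gene of several probe sets represented by that of highest mean signal. Of 26 measured tight junction partners, 9 were past 1.5-fold higher in untreated EBs and 2 lower, relative to ES cells. With RA 2 were higher and 1 lower than in untreated EBs, and with bexarotene 2 were higher and 3 lower. Over all probe sets with 1 symbol, 11.2% were higher and 8.5% lower in untreated EBs against ES cells. Relative to untreated EBs, 2.13% were higher and 2.36% lower with RA, and 1.55% and 2.27% with bexarotene. The counts of the lists below stand beside the same shares. Marveld2 (tricellulin), the protein that seals the corners where 3 cells meet, had 7.26 in ES cells, 8.41 in untreated EBs, 7.47 after RA and 7.45 after bexarotene. Ocln (occludin) had 7.30, 8.09, 7.56 and 7.41. Both were highest on the untreated EB array, as Cldn1 was.

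Jam2, a junctional adhesion molecule, ran opposite, with 10.97 in ES cells, 8.28 in untreated EBs, 10.003 after RA and 9.65 after bexarotene. The untreated EB array was lowest, 6.45-fold below ES cells, and RA and bexarotene were 3.30-fold and 2.59-fold above untreated EBs. Ildr2, an angulin of tricellular junctions, was 5.24-fold higher in untreated EBs than in ES cells and higher still with RA (1.67-fold) and bexarotene (1.71-fold).

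Of 18 measured desmosome and keratin partners, 2 were past 1.5-fold higher in untreated EBs and 5 lower, relative to ES cells. With each ligand 2 were lower than in untreated EBs and none was higher. Dsp (desmoplakin), which ties keratin filaments to the desmosome, had 8.47 in ES cells, 9.83 in untreated EBs, 9.06 after RA and 9.14 after bexarotene. Dsc2, a desmosomal cadherin, had 6.42, 7.61, 6.78 and 6.84. Both were lowest in ES cells and highest in untreated EBs, the order seen for Krt8, Krt18 and Krt19. Dsp and Dsc2 were 1.71-fold and 1.78-fold lower with RA, and 1.62-fold and 1.71-fold lower with bexarotene.

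Of 21 measured genes of epithelial identity, 2 were past 1.5-fold higher in untreated EBs and 6 lower, relative to ES cells. With RA none of them was past 1.5-fold, and with bexarotene 1 was lower, Cdh1 (E-cadherin), at a log2 difference of -0.59. Epcam, an epithelial adhesion molecule named here for its value although it was not past 1.5-fold, had 9.81 in ES cells, 9.29 in untreated EBs, 9.18 after RA and 9.29 after bexarotene. Of 10 EMT factors and markers, 9 were past 1.5-fold higher in untreated EBs than in ES cells, at a median log2 difference of 1.24. Relative to untreated EBs, 2 were lower with RA and 1 with bexarotene, and none was higher. Prrx1, a homeobox gene of mesenchyme, had 5.17-fold more signal in untreated EBs than in ES cells, and with RA and bexarotene it was 2.34-fold and 1.90-fold below untreated EBs.

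Of 18 other intermediate filament genes, 4 were past 1.5-fold higher with each ligand than in untreated EBs, the neurofilament genes Nefl and Nefm, the neuronal filament gene Ina, and Nes of neural progenitors. The muscle filament gene Des was 1.66-fold lower with RA. Nefm had 5.59 in ES cells, 5.65 in untreated EBs, 7.89 after RA and 7.58 after bexarotene. Ina had 10.42, 8.75, 10.72 and 10.30, with untreated EBs lowest. The median log2 difference of the 18 was 0.12 with RA and 0.08 with bexarotene, close to 0. Nes was 2.39-fold higher with RA and 2.26-fold with bexarotene than in untreated EBs.

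**Figure D4:**
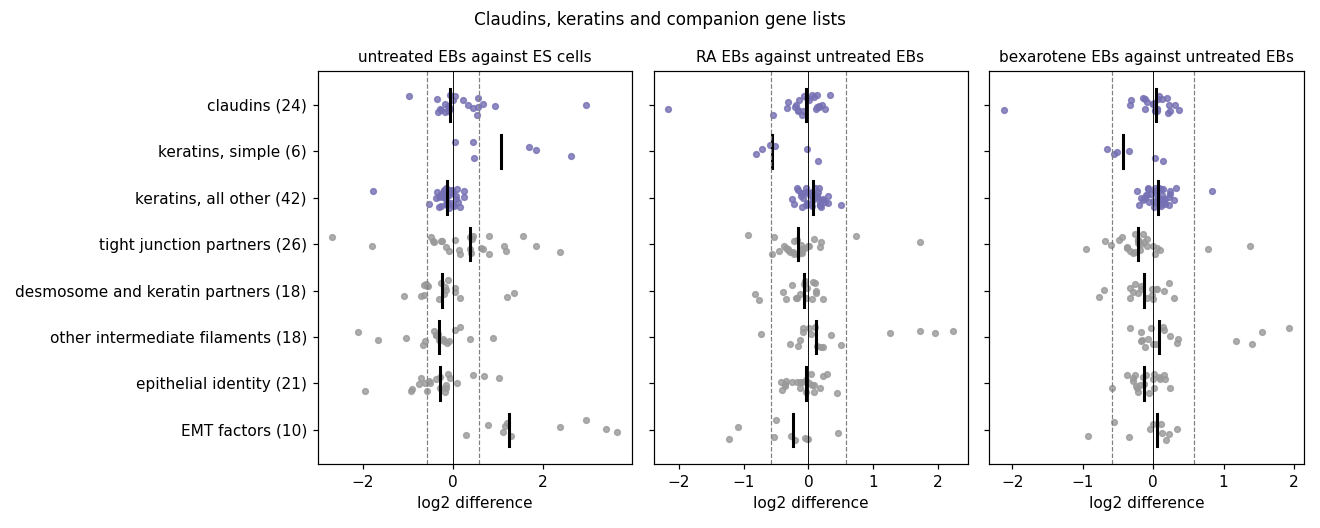
Log2 difference (x axis) in 3 comparisons for claudins, keratins of simple epithelia, all other keratins and 5 companion lists (rows, number of probe sets or genes in parentheses), with 1 point per probe set or gene, black bars at medians and dashed lines at 1.5-fold. Keratins of simple epithelia have medians of 1.08 in untreated EBs against ES cells, -0.56 with RA and -0.43 with bexarotene.

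Arrays of whole EBs cannot tell fewer cells of a type from less RNA per cell. Genes of cell types that carry these proteins differed between the same arrays. The shares over all probe sets with 1 symbol were again 11.2% higher and 8.5% lower in untreated EBs against ES cells. Relative to untreated EBs they were 2.13% and 2.36% with RA, and 1.55% and 2.27% with bexarotene. Of 13 genes of definitive endoderm and gut, 8 were past 1.5-fold higher in untreated EBs than in ES cells, and 7 were lower and none higher with each ligand than in untreated EBs. Their summed signal was 11.47 on the log2 scale in ES cells, 12.88 in untreated EBs, 11.70 after RA and 11.52 after bexarotene, and as for Cldn1 and Krt19 the untreated EB array was highest. Trh had the highest signal of the 13 on each array and weighs most on these sums. It had 10.50 in ES cells, 11.21 in untreated EBs, 9.94 after RA and 9.40 after bexarotene. The nearness of the ligand sums to the ES cell sum depends on Trh, and sums without it were not computed. Of 19 visceral endoderm genes, 14 were higher in untreated EBs and 1 lower, and with each ligand 1 was lower than in untreated EBs and none higher, with summed signal of 12.53, 13.68, 13.88 and 13.74.

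Of 11 trophoblast genes, 3 were past 1.5-fold higher in untreated EBs and 2 lower, relative to ES cells, and 1 was higher and 3 lower with RA, and none higher and 1 lower with bexarotene, than in untreated EBs. Their summed signal was 10.57, 10.92, 10.61 and 10.67. Of 17 neuronal genes, 13 were past 1.5-fold higher with each ligand than in untreated EBs. Of the 21 pluripotency genes, 11 were past 1.5-fold higher with RA than in untreated EBs and 3 with bexarotene, and none was lower. Over all probe sets with 1 symbol, 2.13% were higher with RA and 1.55% with bexarotene. The log2 summed signal of the 21 was 15.66 in ES cells, 13.72 in untreated EBs, 14.18 after RA and 13.98 after bexarotene. The lists overlap, so some genes are counted more than once. Foxa2 and Sox17 are in both endoderm lists, Sox17 also in the endothelial list, and Nefl, Nefm and Ina in the neuronal and filament lists. Gata3 and Tfap2c are in the trophoblast and surface ectoderm lists, and Perp is in the desmosome and surface ectoderm lists. The part of these cell types in the claudin and keratin differences was not tested.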

How the data were processed

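Total RNA of 4 samples, 300 ng each, was labelled and hybridised to Affymetrix arrays, 1 array per condition. The authors deposited log2 signal per probe set, made in Affymetrix Expression Console with background correction, normalization and summary of probes. RMA is named in the article, GCRMA in the submitters' processing notes. The scanner files were not used here. RMA-type processing forces the 4 arrays to a like distribution, so a shift of all genes would not be seen.

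Members were probe sets with 1 symbol, in GEO's annotation of the platform, that fully matches Cldn or Krt plus digits, and all 72 match a current symbol in the RefSeq table (GRCm38.p6). Members and gene lists were chosen with earlier results of these data known. The upstream motifs were chosen with the values of the members known.

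Differences were subtractions of log2 signal in Python 3.11.15 with pandas 2.3.3. No replicates exist, so no test was made. The calling procedure was run on simulated data with changes well past 1.5-fold and little noise. That run checks the code, and it says nothing on how sure the reported calls are. Named with values were members past 1.5-fold in a comparison with signal at or above the array median. So were the 5 per family with the highest mean signal and 12 members named whatever their values, most of which also met another rule. Up to 4 genes of each list, ordered by the bexarotene difference, were named too. Cldn8, Cldn10, Cldn11, Krt20, Krt42, Krt86, neighbouring members, Sfn, Des, Trp63, Epcam, Eng and Pecam1 were named outside these rules, after their values were seen. Alternatives were a 2-fold threshold, quantile normalization, loess of each array on the mean of arrays (span 0.3), a floor at percentile 25, a filter on low signal and 1 probe set per gene.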

Additional observations from a re-analysis of the deposited data

How the results depend on the processing

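Each count of claudin and keratin probe sets past 1.5-fold in the 4 main comparisons was recomputed under 6 alternatives. Of 48 recomputed counts, 44 stayed within 1.5 times the reported count, but several of these could not move. Using 1 probe set per gene affects only Cldn10, which was not past 1.5-fold in these comparisons. The counts of 0 between bexarotene and RA cannot rise at a 2-fold threshold or under the filter. Quantile normalization was applied to values already brought to a like distribution. At a 2-fold threshold, 1 claudin, Cldn1, remained in untreated EBs against ES cells in place of 4, and 0 keratins remained after RA and 0 after bexarotene. Leaving out probe sets below the median on both arrays left 1 keratin with bexarotene, Krt19, since Krt5 was dropped. After loess, Cldn8 and 1 Cldn10 probe set joined the claudins higher in untreated EBs than in ES cells, at log2 differences of 0.62 and 0.61, and Krt8 left the keratins lower with RA. No reported difference changed sign while past 1.5-fold, and the single differences of members named by the rule and the family medians moved by at most 0.10 under quantile normalization, 0.07 under loess and 0.05 with the floor. No paired analysis was possible because each condition has 1 array. The main limits are the lack of replicates, the single untreated array behind both ligand comparisons, and signal below the array median for 59 of 72 members, where small changes cannot be seen.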

Other observations

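Relatives of the claudin and keratin genes whose symbols fall outside the rule, or whose probe sets carry several symbols, gave 15 further probe sets. Krt6a and Krt6b, keratins of wounded and appendage epithelium, stayed between 5.35 and 5.71 and between 5.11 and 5.28 in log2 signal on the 4 arrays. Cldnd1, a claudin domain protein, had 9.49 in ES cells, 10.02 in untreated EBs, 9.91 after RA and 10.02 after bexarotene. A probe set shared by Dzip1 and Cldn10 had 7.09, 7.71, 7.73 and 7.85 on the arrays in that order. The 3 probe sets shared by Gm2411, Cldn34c4 and Cldn34c1 had log2 differences of 0.67, 0.62 and 0.60 in untreated EBs against ES cells. These and the Dzip1 and Cldn10 probe set were the 4 of 15 whose lowest and highest arrays lay 1.5-fold or more apart. Over all probe sets with 1 symbol, 5649 of 21789 varied by as much, a similar share.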
